A study of Mus musculus and Heterocephalus glaber with 4 samples.

Results

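The 4 mouse Hox gene clusters were examined in ATAC-seq peak lists of cultured adult skin fibroblasts. ATAC-seq marks open chromatin by letting a transposase insert sequencing adapters into accessible DNA, and a peak is a stretch in which such insertions were called enriched. Every peak that overlapped 1 of 4 windows in mm9 by at least 1 bp was taken: Hoxa on chromosome 6 (52100000 to 52220000, 120 kb), Hoxb on chromosome 11 (96050000 to 96235000, 185 kb), Hoxc on chromosome 15 (102745000 to 102870000, 125 kb) and Hoxd on chromosome 2 (74500000 to 74610000, 110 kb). These windows held 46 of the 75120 peaks of the control list and 44 of the 63258 peaks of the large T list. The control library came from fibroblasts labelled as control, and the large T library from fibroblasts into which the large T antigen of the virus SV40 had been introduced, which inactivates p53 and the retinoblastoma proteins. Both cultures were at passage 16 and grew at 37 °C with 15% serum, 3% oxygen and 5% CO2. The mouse strain, sex and age, and whether the large T cells were a clone or a mixed population, are not given in the sources used here. Each group had 1 library, so no value below has a replicate error, no difference between the libraries was tested, and the read depth behind the peaks is unknown. No gene annotation of mm9 was used here, so peaks are given by position, fibroblast marker genes were not examined, and no peak is assigned to a single Hox gene.

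Hox genes encode homeodomain transcription factors that give cells along the body axis their positional identity. In each cluster the genes stand in the order in which they are used along the axis, with the group 13 genes, which act at the tail end and in the outer parts of the limbs, at one end. Fibroblasts from different body sites keep different sets of Hox genes active in culture, and Polycomb complexes hold the inactive genes in closed chromatin. The rule names 38 genes: 10 of Hoxa (Hoxa2 to Hoxa13), 10 of Hoxb (Hoxb1 to Hoxb13), 9 of Hoxc (Hoxc4 to Hoxc13) and 9 of Hoxd (Hoxd1 to Hoxd13). By the gene order of a RefSeq table of GRCm38, all 38 were found. Hoxa13 stands at the high-coordinate end of its cluster, and Hoxb13, Hoxc13 and Hoxd13 stand at the low-coordinate end of theirs. That this order also holds in mm9 was assumed.

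Upstream sequences were available for 22 of the 38 genes (24 sequences) in RefSeq's promoter table of GRCm38.p6. They are shown for the kind of DNA that starts these genes, and they cannot be laid over the mm9 peaks. The 250 bases before the start held a median of 12.5 CG dinucleotides (searched as CG, which reads the same on both strands), with a range from 2 at 1 start of Hoxd11 to 35 at Hoxa13. At least 10 were present in 15 of 24 Hox sequences (62.5%) and in 37.8% of all 32851 sequences of the same length in the table, whose median was 6. Of the matched sequences, that with the most CG dinucleotides in each cluster (of 10 for Hoxa, 3 for Hoxb and 10 for Hoxd, and the 1 for Hoxc) is printed 5′ to 3′ with each CG in capitals. Hoxa13 lies on the minus strand at chr6:52260881-52261130 and Hoxd13 on the plus strand at chr2:74667975-74668224. Hoxb4 lies on the plus strand at chr11:96318017-96318266 and Hoxc4 on the plus strand at chr15:103034145-103034394.
Hoxa13: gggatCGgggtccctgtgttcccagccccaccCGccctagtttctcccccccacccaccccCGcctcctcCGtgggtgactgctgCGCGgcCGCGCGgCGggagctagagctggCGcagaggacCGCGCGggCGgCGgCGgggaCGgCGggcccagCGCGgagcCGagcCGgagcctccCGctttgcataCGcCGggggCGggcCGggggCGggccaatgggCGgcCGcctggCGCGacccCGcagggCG
Hoxd13: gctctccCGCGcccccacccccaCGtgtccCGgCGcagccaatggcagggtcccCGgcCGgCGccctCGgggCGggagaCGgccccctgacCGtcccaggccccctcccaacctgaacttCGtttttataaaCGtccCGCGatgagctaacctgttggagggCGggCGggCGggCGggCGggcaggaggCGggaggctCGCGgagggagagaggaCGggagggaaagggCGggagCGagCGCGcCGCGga
Hoxb4: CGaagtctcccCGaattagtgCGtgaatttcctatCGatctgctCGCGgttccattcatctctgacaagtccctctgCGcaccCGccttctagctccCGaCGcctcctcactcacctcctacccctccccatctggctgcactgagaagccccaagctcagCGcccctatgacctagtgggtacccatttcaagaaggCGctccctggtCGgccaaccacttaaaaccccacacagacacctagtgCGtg
Hoxc4: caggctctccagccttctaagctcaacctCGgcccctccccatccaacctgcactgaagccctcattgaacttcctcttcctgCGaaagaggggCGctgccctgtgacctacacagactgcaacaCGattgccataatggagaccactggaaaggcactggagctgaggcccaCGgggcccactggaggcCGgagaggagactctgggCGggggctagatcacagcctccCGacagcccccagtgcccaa
Hoxa13 held 35 CG dinucleotides, Hoxd13 held 31, Hoxb4 held 14 and Hoxc4 held 8. Hoxa13 thus had more of them than 97.0% of the table's sequences, and Hoxc4 more than 57.0%. Not matched in the table were Hoxa4, Hoxb2, Hoxb3, Hoxb5, Hoxb6, Hoxb7, Hoxb9, Hoxb13, Hoxc5, Hoxc6, Hoxc8, Hoxc9, Hoxc10, Hoxc11, Hoxc12 and Hoxc13.

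All 4 Hox windows were among the most covered parts of their chromosomes in both lists. Peaks covered 22.8% of the Hoxa window in control cells and 18.5% in large T cells. The Hoxb window was covered to 15.4% and 10.3%, the Hoxc window to 18.7% and 17.0%, and the Hoxd window to 16.1% and 11.9%. For comparison, each chromosome was cut into windows of the same length as its Hox window, which gave 1245 windows on chromosome 6, 658 on chromosome 11, 826 on chromosome 15 and 1651 on chromosome 2. Their median coverage lay between 2.97% (chromosome 6) and 4.85% (chromosome 11) in the control list, and between 2.09% and 3.61% on the same chromosomes in the large T list. Hoxa ranked 4 of 1246 windows in control cells and 6 in large T cells. Hoxc ranked 8 of 827 and 5, Hoxb 13 of 659 and 33, and Hoxd 44 of 1652 and 61. The control coverage of Hoxa thus exceeded that of 99.8% of the other windows, Hoxc 99.2%, Hoxb 98.2% and Hoxd 97.4%. In large T cells the shares were 99.6% for Hoxa, 99.5% for Hoxc, 95.1% for Hoxb and 96.4% for Hoxd. These shares are descriptions of 1 library each and carry no test, and gene density was not matched. The position of Hoxb depended most on weak peaks. With only the 50% highest-scoring peaks of each list, Hoxb exceeded 80.7% of windows in control and 74.1% in large T cells. In large T cells the shares of Hoxa, Hoxc and Hoxd were then 92.9%, 95.0% and 93.9%. In control cells they were 99.8%, 99.8% and 94.1%.

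**Figure D1:**
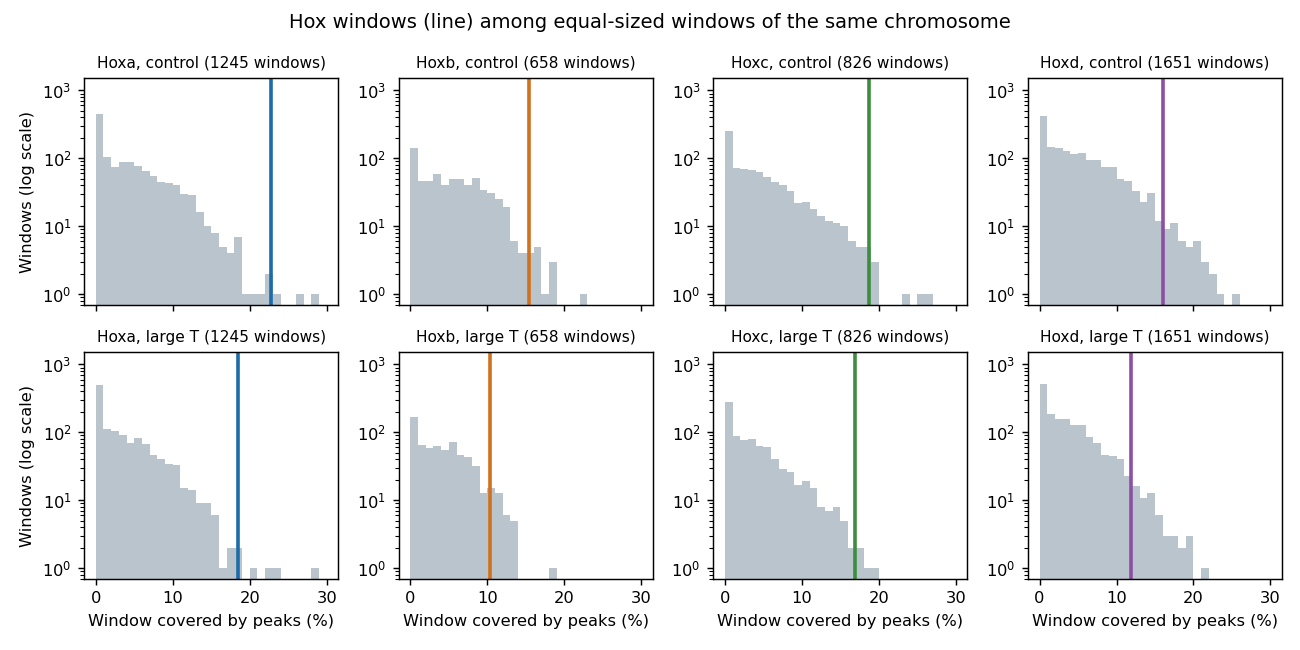
Share of a window covered by ATAC-seq peaks (x axis, percent) against the number of windows (y axis, log scale) for windows of the Hox window's length on the same chromosome, in the control list (top) and the large T list (bottom). The coloured line is the Hox window itself, between 10.3% (Hoxb, large T) and 22.8% (Hoxa, control), to the right of most windows in all 8 panels.

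The Hox windows held many peaks, wide ones in Hoxa, Hoxb and Hoxc, but not peaks that stood high in score as a group. The Hoxa window held 13 control and 10 large T peaks, against chromosome medians of 3 and 2 per window. The Hoxb window held 12 in each list (medians 6 and 5), Hoxc 10 and 12 (medians 3.5 and 3) and Hoxd 11 and 10 (medians 3 and 3). The Hoxa counts exceeded those of 99.5% of windows in control and 97.2% in large T cells. In the same order the shares were 93.8% and 98.7% for Hoxc and 98.1% and 97.8% for Hoxd. They were lower for Hoxb, at 83.0% and 89.8%. The median width of all Hox peaks was 1946 bp in control cells, against 1220 bp over the whole list. In large T cells it was 1628 bp, against 1158 bp. Peaks of at least 2 kb numbered 19 of 46 in the control list (41.3%; 18.2% of the whole list) and 10 of 44 in the large T list (22.7%; 15.2% of the whole list). Among windows with at least 5 peaks, a comparison chosen after the values were seen, the median peak width of Hoxb in control cells (2111 bp) exceeded that of 97.4% of windows, Hoxc (2064 bp) 96.0% and Hoxa (1830 bp) 90.6%. Hoxd (1517 bp) exceeded 69.5% of windows in control cells, and with 1204 bp 52.4% in large T cells. In large T cells the widths of Hoxa (1836 bp), Hoxc (1766 bp) and Hoxb (1350 bp) exceeded those of 92.5%, 91.5% and 76.4% of windows.

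The score, the authors' value for each peak, was read as a percentile within its own list, with 100 the highest. The median percentile of the Hox peaks was 51.6 in control cells (range 1.42 to 94.5) and 38.1 in large T cells (range 0.528 to 88.1). The members thus spread over nearly the whole control list. The highest 10% of the control list included 4 of the 46 Hox peaks, and that of the large T list none of the 44. By cluster the control medians were 55.6 for Hoxa, 35.9 for Hoxb, 59.0 for Hoxc and 47.2 for Hoxd, and the large T medians were 38.1, 24.3, 37.9 and 49.9 in the same order. Among windows with at least 5 peaks, the control medians of Hoxa, Hoxb, Hoxc and Hoxd exceeded those of 61.0%, 14.6%, 66.0% and 41.7% of windows. In large T cells the shares were 22.3%, 3.85%, 22.7% and 49.8% in the same order. The lowest, that of Hoxb, rests on 12 peaks. The 95% interval of its median percentile (9.95 to 57.2) includes the median of those windows, 49.7.

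The windows next to the clusters were less covered. The windows of equal length on the low and high sides of Hoxa were covered to 5.13% and 4.23% in control cells and to 3.25% and 1.99% in large T cells. Those beside Hoxd were covered to 2.94% and 4.18% in control cells and to 3.03% and 2.34% in large T cells. The neighbours of Hoxb reached 7.17% and 3.07% in control and 4.13% and 2.07% in large T cells. The neighbours of Hoxc were the most covered, with 5.79% and 9.88% in control and 5.62% and 7.42% in large T cells. In both lists each Hox window was thus more covered than both of its neighbours.

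In Hoxa, open sites followed each other at short distances over the low-coordinate side and the middle, and stopped before the Hoxa13 end of the window. The highest-scoring and widest peak of both lists lay near the Hoxa2 end, at 52107361 to 52111580 in control cells (4220 bp, percentile 94.1) and at 52107641 to 52111463 in large T cells (3823 bp, percentile 88.1). From there to 97.3 kb from the window start no control stretch without a peak was longer than 10.4 kb. The last 22.7 kb of the window held no peak of either list. All 10 large T peaks overlapped a control peak, and 3 of the 13 control peaks were found in that list alone. These were at 52146654 to 52148025 (percentile 54.5), 52170928 to 52172372 (percentile 9.97) and 52195725 to 52197288 (percentile 7.51). The first of them scored in the middle of the control list and was 4074 bp away from any peak called in large T cells. The peak at 52182412 to 52184726 had the largest difference in whole-list percentile of all shared Hox peaks: it stood at percentile 55.6 in control cells and 1.46 in large T cells. Its width was 2315 bp in control cells and 1065 bp in large T cells.

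In Hoxb, a single site at the Hoxb13 end was followed by the longest stretch without peaks of the 4 windows. The site was at 96054756 to 96056150 in control cells (percentile 44.5) and 96055300 to 96056122 in large T cells (percentile 28.5). The next 55.6 kb, from 96056151 to 96111716, held no peak of either list. In the gene table the longest interval between neighbouring Hoxb genes is that from Hoxb13 to Hoxb9, and whether it coincides with the empty stretch was not examined. The peaks of the cluster then lay between 61.7 and 105.2 kb and between 122.2 and 165.2 kb from the window start. The highest-scoring peak of both lists was at 96130453 to 96134739 in control cells (4287 bp, percentile 76.1) and at 96130964 to 96134539 in large T cells (3576 bp, percentile 63.6), where it was also the widest.

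The widest Hoxb peak of the control list, at 96143692 to 96148883, was 5192 bp wide at percentile 34.6. Its large T counterpart at 96145241 to 96147253 was 2013 bp wide at percentile 9.95. Single-list peaks numbered 2 in each list. Those of control cells were at 96113652 to 96114770 (percentile 11.0) and 96153009 to 96155166 (percentile 12.6). Those of large T cells were at 96114962 to 96115809 (percentile 4.23) and 96138429 to 96139335 (percentile 0.528). The first control peak and the first large T peak of these lay 93 and 191 bp from the nearest peak of the other list, so they are close to being counted as shared. The peak at 96201671 to 96203733 stood at percentile 62.2 in control and 13.1 in large T cells, and was 2063 bp and 946 bp wide.

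In Hoxc, 6 peaks were found in 1 list only, 2 of control and 4 of large T cells. The highest-scoring peak of both lists lay at the Hoxc13 end, at 102750105 to 102753008 in control cells (percentile 94.5) and 102750710 to 102752621 in large T cells (percentile 86.2). The control percentile of this site was the highest of all Hox peaks. The widest was at 102827843 to 102833911, 6069 bp in control cells (percentile 56.9), where it was the widest Hox peak of either list, and 3514 bp in large T cells (102828057 to 102831570, percentile 65.1). Of the 12 large T peaks 4 were not in the control list: 102756484 to 102757111 (percentile 13.7), 102764459 to 102766228 (percentile 16.7), 102789962 to 102791329 (percentile 0.877) and 102843191 to 102846383 (percentile 21.4). The last of these was 3193 bp wide, the second widest large T peak of Hoxc, and lay 9279 bp from the nearest control peak.

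Of the 10 control peaks of Hoxc, 2 were not in the large T list, at 102799123 to 102799854 (percentile 7.0) and 102820414 to 102821953 (percentile 19.4). The shared peak at 102783400 to 102786054 stood at percentile 50.8 in control and 2.07 in large T cells, with widths of 2655 bp and 882 bp. The longest stretch without a control peak was 22.5 kb (102833912 to 102856400), and the 3193 bp large T peak lay within it.

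In Hoxd, the highest-scoring sites stood next to each other on the Hoxd13 side of the middle. Control peaks at 74528832 to 74531279, 74535266 to 74537199 and 74542198 to 74544620 stood at percentiles 89.1, 91.6 and 90.2. The large T peaks there stood at 65.7, 82.9 and 87.3, and the last of them, at 74542492 to 74544214, was the highest of Hoxd in that list. The widest control peak was the first of these (2448 bp) and the widest large T peak the second (1924 bp). Towards Hoxd13 they were preceded by a stretch of 21.6 kb (74507228 to 74528831) with no peak of either list. The 10 large T peaks were all shared, and 1 control peak, at 74578390 to 74579396 (percentile 1.66), was found in control cells alone. The site nearest the Hoxd1 end, at 74600715 to 74601652 in control cells, ran the other way from most: it stood at percentile 34.1 in control and 59.5 in large T cells.

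**Figure D2:**
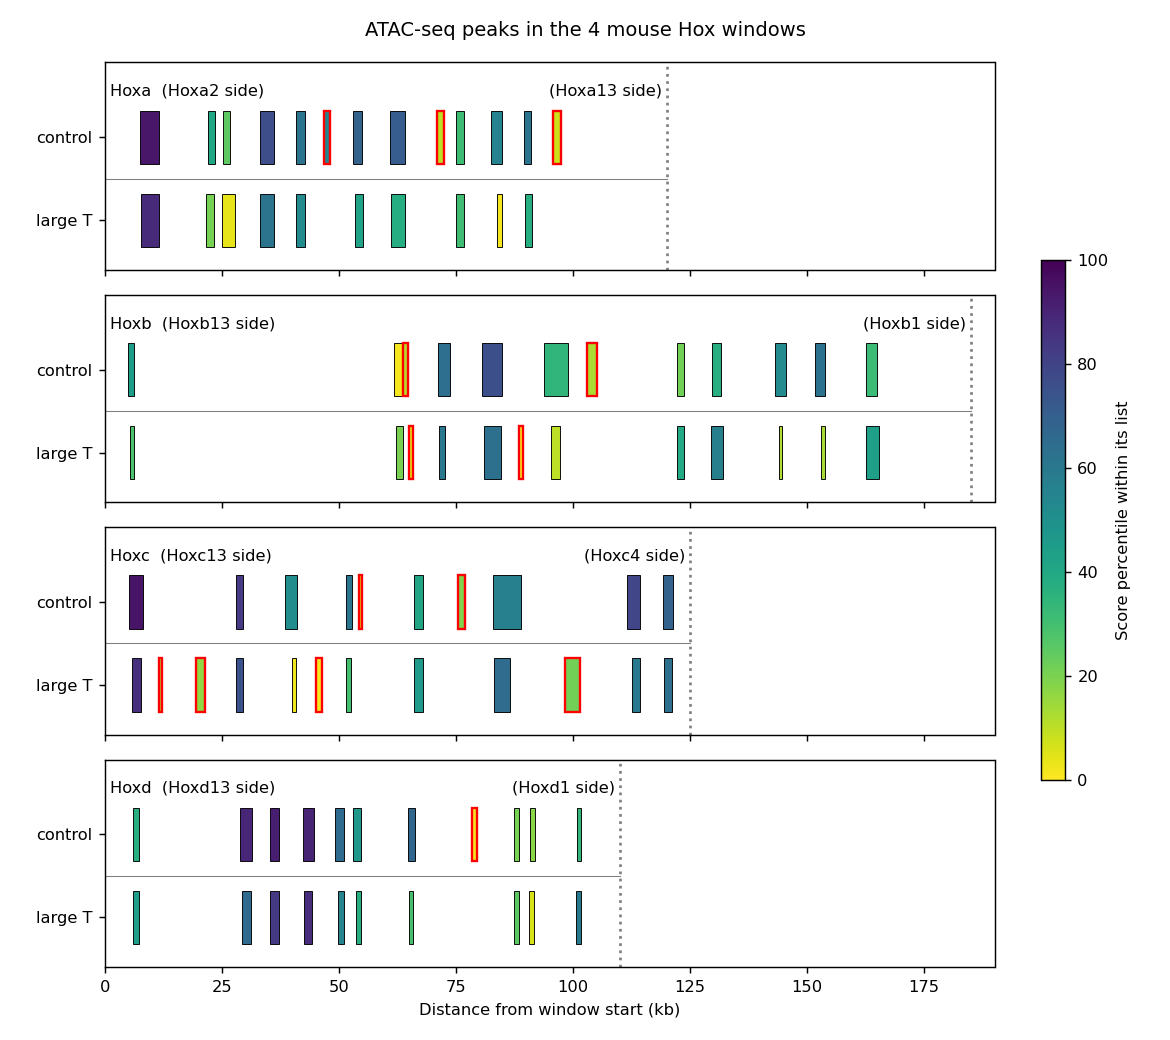
Peaks of the control list (upper row) and the large T list (lower row) along each Hox window, with distance from the window start in kb on the x axis and the score percentile within its list as colour; red outlines mark the 14 peaks found in 1 list only, and the dotted line marks the window's end. The stretch of 55.6 kb without peaks in Hoxb and the empty last 22.7 kb of Hoxa are visible, and the peaks outlined in red are pale apart from 1 control peak of Hoxa at percentile 54.5.

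In the control list 38 of 46 Hox peaks (82.6%, exact 95% binomial interval 68.6 to 92.2) had a counterpart in large T cells and 8 (17.4%) had none, against 28.8% with none over the whole list. In the large T list 38 of 44 (86.4%, 72.6 to 94.8) had a counterpart in control cells and 6 (13.6%) had none, against 14.8%. Both intervals, which cover counting error only, include the share of the whole list (71.2% and 85.2%). They treat peaks as independent, which neighbouring peaks of 1 library are not, so they serve as no test. The control comparison depended on the setting. With the same number of highest-scoring peaks from both lists, 94.9% (82.7 to 99.4) of control Hox peaks had a counterpart, against 78.5% of all control peaks. With the 50% highest-scoring peaks of each list the shares were 58.3% and 72.7%. When at least 50% of the peak had to overlap, they were 69.6% and 68.7%. All but 1 of the 14 single-list peaks stood below percentile 25, and their distance to the nearest peak of the other list ranged from 93 to 9279 bp. Of the control Hox peaks at or below percentile 50, 7 of 22 (31.8%) were in 1 list only, against 50.8% of all control peaks in that range. Above it the count was 1 of 24 (4.17%), against 6.74%.

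Counted in bases, 63.0 kb of the 4 windows were covered in both lists, 33.9 kb in control cells only and 12.6 kb in large T cells only. The Jaccard index, the shared bases over those covered by either list, was 0.575 over the 4 windows and 0.589 over the whole lists. It was 0.681 in Hoxa and 0.688 in Hoxd, and 0.516 in Hoxb and 0.465 in Hoxc. Among windows of equal size with peaks in both lists these stood above 70.6% (Hoxa), 73.7% (Hoxd), 30.4% (Hoxb) and 24.2% (Hoxc), so none of the clusters stood at an extreme. The large T peaks covered 78.0% of the control length over the 4 windows (75.5 against 96.9 kb) and 78.6% over the whole lists. By cluster this ratio was 81.1% in Hoxa, 66.9% in Hoxb, 90.7% in Hoxc and 74.1% in Hoxd. The medians of the equal-sized windows were 81.1%, 76.5%, 80.7% and 75.3% in the same order.

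Most of the difference in Hox coverage lay in shared sites that were narrower in large T cells. The 38 sites paired between the lists held 19.1 kb of the 21.3 kb difference, or 89.6%, while over the whole lists paired sites held 48.4% of the difference. This held in Hoxb (83.9%) and Hoxd (78.0%) but not in Hoxa, where paired sites held 15.0% and the 3 control-only peaks the rest. In Hoxc paired sites were 6.85 kb shorter in large T cells, and the unpaired peaks offset 4.69 kb of it. All these shares are of net differences. Over the 4 windows the 8 control-only peaks held 10.9 kb and the 6 large T-only peaks 8.71 kb, which largely offset each other. The large T peak was the narrower in 30 of 38 pairs (78.9%), against 71.5% of the 53376 pairs of the whole lists, and the median width ratio of large T over control was 0.839 and 0.895. In 6 Hox pairs (15.8%) the large T peak was at most 0.5 times as wide, against 3.79% of all pairs. All 6 had a control peak of at least 2 kb, of which there were 18 (33.3%), against 8.11% of all pairs with a control peak that wide. Of these 6, 4 were in Hoxb, with ratios from 0.271 to 0.494, and 1 each in Hoxa (0.460) and Hoxc (0.332). The comparison at 0.5 was chosen after the values were seen.

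Ranked among shared sites only, which removes the effect of list length, 26 of 38 Hox sites (68.4%) stood lower in the large T list, against 49.8% of all pairs. The median change was -6.76 percentile points, and 0.05 over all pairs. In Hoxa 9 of 10 sites stood lower (median -11.2 points), in Hoxd 7 of 10 (-3.14), in Hoxc 5 of 8 (-6.74) and in Hoxb 5 of 10 (-2.96). More than 25 points lower stood 6 Hox sites (15.8%; 8.44% of all pairs), and more than 25 points higher 2 (5.26%; 8.39% of all pairs). These 2 were the site near the Hoxd1 end named above and the Hoxb site at 96179535 to 96181531, which stood at percentile 37.3 of the whole control list and its counterpart at 57.2 of the large T list. Of the 38 sites, 23 were both narrower and lower, and 5 both wider and higher. Neighbouring sites of a cluster share a library and are not independent, so these counts carry no test.

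**Figure D3:**
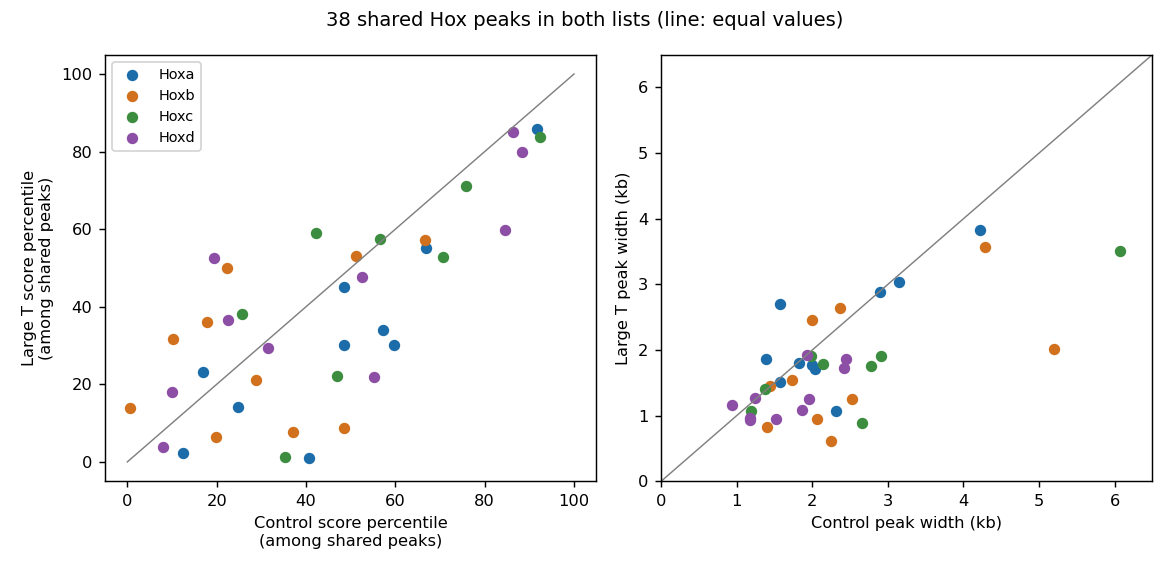
The 38 Hox sites found in both lists, with the control value on the x axis and the large T value on the y axis: score percentile among shared peaks (left) and peak width in kb (right), coloured by cluster, with the line of equal values. Below the line lie 26 sites in score percentile and 30 in width, and the widest control peaks (5.19 kb in Hoxb and 6.07 kb in Hoxc) lie far below it.

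Most bins of each window held peaks, and Hoxb had the most empty bins (8 of 19). Of 55 bins of 10 kb (the last bins of Hoxb and Hoxc were 5 kb), 38 held covered bases in both lists, 11 in neither, 3 in control cells only and 3 in large T cells only. In the rest of the same chromosomes 23.5% of 55587 bins were covered in both lists and 66.3% in neither, against 69.1% in both for the Hox bins. Of the bins covered in either list, 86.4% were covered in both in the Hox windows and 69.9% in the rest of the chromosomes. This comparison was added after the values were seen. A bin covered in both lists need not hold overlapping peaks, and the comparison bins, which were less often covered, were not matched for coverage. Counted in bases, the Jaccard index was 0.575 over the 4 windows and 0.589 over the whole lists. The 3 bins covered in large T cells only were all in Hoxc, where 69.2% of the covered bins were covered in both lists. The most covered bin was 80 to 90 kb from the start of the Hoxc window in control cells (60.7%; 35.1% in large T cells) and 20 to 30 kb from the start of Hoxa in large T cells (45.7%; 29.5% in control cells).

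The clusters differed in which side was more covered. Each window was split at its midpoint. On the Hoxd13 side, 21.6% of the sequence was covered in control cells and 16.6% in large T cells, against 10.6% and 7.27% on the Hoxd1 side. Hoxa ran the other way, with 19.8% and 12.4% on the Hoxa13 side and 25.8% and 24.6% on the Hoxa2 side. Hoxc was covered to 14.2% and 14.5% on the Hoxc13 side and 23.2% and 19.4% on the Hoxc4 side. Hoxb was covered to 12.0% and 9.67% on the Hoxb13 side and 18.9% and 10.9% on the Hoxb1 side. The order of the sides in coverage was thus the same in both lists for each cluster. In median score percentile it was the same in Hoxd (77.2 and 60.4 on the Hoxd13 side, 20.7 and 27.2 on the Hoxd1 side) and in Hoxa (43.3 and 34.4 on the Hoxa13 side, 62.1 and 47.3 on the Hoxa2 side). It differed between the lists in Hoxb (44.5 and 24.3 on the Hoxb13 side, 34.6 and 26.4 on the Hoxb1 side) and in Hoxc (61.0 and 16.7 on the Hoxc13 side, 56.9 and 59.6 on the Hoxc4 side). The split was chosen after the values were seen and depends on where the windows end.

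**Figure D4:**
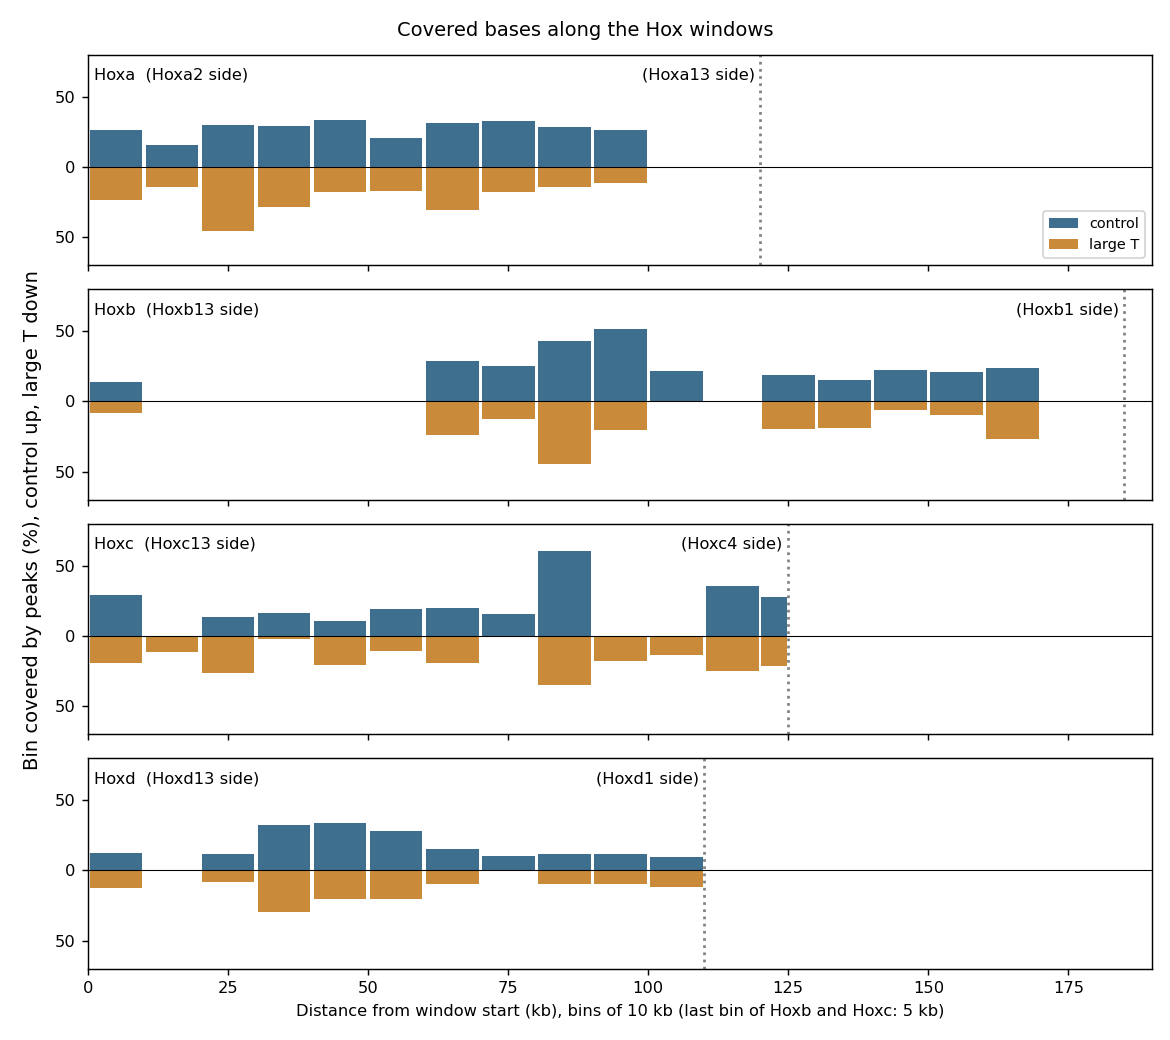
Share of each 10 kb bin covered by peaks (percent) along the Hox windows, with distance from the window start in kb on the x axis, control cells drawn upwards and large T cells downwards. The most covered control bin is that of Hoxc at 80 to 90 kb (60.7%), and Hoxd is most covered between 30 and 60 kb.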

How the data were processed

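The members, windows and comparisons were chosen with earlier results of these data known. Per the labels' protocols, each reaction took 50000 cells and 30 min, with 10 to 12 cycles of amplification. The authors deposited a peak list for each library; its peak names begin with MACS, and caller settings are not given in the sources used here. The build, mm9, and the tools Bowtie, SAMtools, bedtools and CASAVA, without their roles, are named per the submitters' processing notes. The deposited score has no stated definition and begins at 50.0 (large T) and 50.01 (control), so it was used only as a rank within its list. Positions in the deposited lists (another kind of value, in bp) follow the BED convention and are printed with 1-based starts. On chromosome 1, 71 control and 66 large T peaks start beyond the last gene of the GRCm38 table, whose coordinates were therefore not set against peaks. Peaks of 1 list did not overlap each other.

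Any overlap of 1 bp or more with the other list made a peak shared; each was matched to a single partner, that of longest overlap first. Comparison windows were non-overlapping, of the Hox window's length, anchored at its start and run to the last peak of the chromosome, the Hox window left out. Named peaks were, per cluster and list, the highest-scoring and widest, every single-list peak, the 3 shared peaks with the largest difference in percentile, and the longest peak-free stretch per cluster; any other peak was singled out with its values in view. Planned lists of marker and cofactor genes needed an annotation of mm9 and were not run. The functions were tested on simulated lists, and member counts, single-list counts and covered bases equalled those of bedtools 2.31.1. Scripts ran under Python 3.11.15 (pandas 2.3.3, numpy 2.4.6, scipy 1.17.1). The 2 naked mole rat lists were not used here.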

Additional observations from a re-analysis of the deposited data

How the results depend on the processing

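Of 98 recomputed values for the 4 windows together or for a cluster's percentile among equal-sized windows, 77 stayed within 1.5 times the count or within the 95% interval of the value, and 21 moved. Assigning peaks by midpoint, joining peaks less than 200 bp apart, asking for 50% overlap and leaving out windows with no peak moved none of them. With 50% overlap, however, the control share with a counterpart went from 82.6% to 69.6%, near the lower end of its interval (68.6 to 92.2). The whole-list share was then 68.7%. No Hox peak crossed a window edge, and no 2 of the same list lay less than 200 bp apart. Midpoint assignment and joining thus left the 46 control and 44 large T peaks and their covered bases unchanged, and are no check on these. With the 50% highest-scoring peaks, 24 control and 16 large T peaks covered 60054 and 34060 bp. The control share with a counterpart was 58.3% (72.7% of the whole list), and the percentiles were 92.9 (Hoxa, large T), 80.7 and 74.1 (Hoxb, control and large T), 99.8 and 95.0 (Hoxc), and 94.1 and 93.9 (Hoxd). With equal list lengths the control share with a counterpart was 94.9% (78.5% of the whole list) and the Hoxb control percentile 96.5. With windows extended by 20 kb on both sides the percentiles were 95.7 and 89.8 (Hoxb), 97.9 and 97.8 (Hoxc), and 93.1 and 93.6 (Hoxd). Comparison windows shifted by 0.5 of their length gave 96.4 for Hoxd in control cells. The cause was not tested. For the clusters' own counts, coverage, ranks and shares, 149 of 168 recomputed values stayed within the same limits. Among the 19 that moved was the control share of Hoxb with a counterpart, 83.3% in the main setting. It was 50% with 50% overlap, 50% with the 50% highest-scoring peaks and 100% with equal list lengths. Score percentiles of shortened lists were taken anew within them and are another measure than whole-list percentiles. Those counted here and above as staying are thus no sign of stability. No paired analysis was possible because each group has 1 library. Read depth is unknown, and the number and width of called peaks depend on it, so a site listed in 1 library only is not shown to be closed in the other.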
